A study of Mus musculus with 36 samples.

Results

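The effect of glucokinase (GK) overexpression was examined in mouse hepatocytes that also expressed mouse GKRP-446L (mL), the glucokinase regulatory protein with leucine at residue 446, from an adenoviral vector. The comparison used 6 of the 36 RNA-seq libraries of the series. In 3 of them hepatocytes received the mL vector and a GK vector (GK + mL), and in the other 3 they received the mL vector at endogenous GK (mL). These libraries were chosen by their labels alone, and each of 3 hepatocyte preparations, 1 from each mouse, gave 1 library to either group, so the groups were paired by mouse.

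The hepatocytes came from female mice aged 14 weeks of the GCKR-P446L-EMI-B6N line. By the labels the genotype was Gckr-446L for mice 1 and 2 but Gckr-446P/L for mouse 3, although the methods of the study describe hepatocytes homozygous for 446L. All groups were cultured for 24 h in medium with 5 mM glucose, 10 nM insulin and 10 nM dexamethasone, and then incubated for 4 h with 25 mM glucose. The other 30 libraries were untreated hepatocytes (6), GK overexpression alone (6), human GKRP-446P (hP), human GKRP-446L (hL) and mouse GKRP-446P (mP) at endogenous GK (3 each) and the same 3 vectors with GK overexpression (3 each). Untreated cells and GK overexpression alone had 2 cultures for each mouse, which were summed. The study's supplement lists the GK vector with the prefix r, where human and mouse vectors carry h and m, and the mouse GKRP vector as the longer of the Gckr transcripts. The labels name no group with an empty vector, so the effect of GK and that of a second virus cannot be told apart.

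GK phosphorylates glucose in the hepatocyte, and GKRP binds it and holds it in the nucleus when glucose is low. At high glucose GK leaves for the cytoplasm, where glucose 6-phosphate feeds glycolysis, glycogen and lipid synthesis. Glucose-derived metabolites activate ChREBP (encoded by Mlxipl), a transcription factor that with its partner Mlx binds carbohydrate response elements, paired E-box-like sequences near genes such as Pklr, Txnip and G6pc1. Leucine at residue 446 of GKRP is a common human variant linked to blood triglycerides and glucose. The comparison asks how far the transcriptional response to GK is seen when the 446L form of mouse GKRP is present.

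The 250 bases before the start of 3 raised genes are shown so that matches to a motif of carbohydrate response elements can be read directly. They were read from GRCm39 on the strand of the gene, and the capitals mark a match to the motif CANGNGNNNNNCNCNTG, a pair of E-box-like parts with N for any base, searched on both strands.
Pklr, chr3:89043629-89043878, plus strand: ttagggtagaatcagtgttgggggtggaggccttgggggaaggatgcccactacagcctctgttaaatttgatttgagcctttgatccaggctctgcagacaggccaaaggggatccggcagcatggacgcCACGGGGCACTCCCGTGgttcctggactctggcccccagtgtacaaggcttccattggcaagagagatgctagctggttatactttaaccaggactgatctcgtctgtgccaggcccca
Txnip, chr3:96465017-96465266, plus strand: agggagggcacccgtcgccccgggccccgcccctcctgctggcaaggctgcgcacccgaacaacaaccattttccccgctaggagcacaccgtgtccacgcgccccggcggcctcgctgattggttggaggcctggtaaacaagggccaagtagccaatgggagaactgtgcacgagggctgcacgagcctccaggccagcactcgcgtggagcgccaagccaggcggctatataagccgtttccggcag
G6pc1, chr11:101258119-101258368, plus strand: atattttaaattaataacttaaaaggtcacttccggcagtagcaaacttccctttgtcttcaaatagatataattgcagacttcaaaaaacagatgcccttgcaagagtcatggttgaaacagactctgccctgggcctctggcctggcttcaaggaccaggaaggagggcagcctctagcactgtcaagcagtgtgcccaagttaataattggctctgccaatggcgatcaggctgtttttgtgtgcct

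The match before Pklr runs from 119 to 103 bases upstream of the transcript start. The same bases also match the narrower motif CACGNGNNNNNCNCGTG, every match of which is a match of the wider one. Of the 27 raised genes described below, Pklr alone held a match to either motif in these 250 bases (3.7%), against 0.435% of the 12175 promoters of tested genes for the wider motif and 0.0411% for the narrower one. The single E-box CACGTG stood before 2 of the 27 raised genes, 2310022B05Rik and Spring1 (7.41%), and before 7.66% of all promoters. A match is a description of the letters. Elements outside this window, with other letters or with the parts in another orientation were not searched. The lack of capitals before Txnip and G6pc1 therefore does not mean that no element is there.

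The labels were first checked with Gckr, the gene of the mouse GKRP vector. Its levels, like those of all genes here, are CPM (a count divided by the TMM-adjusted library size), listed in the order of mice 1, 2 and 3. Gckr (ENSMUSG00000059434; chromosome 5 from 31454787 to 31484658) was at 14321, 11251 and 17263 CPM with mL and at 10943, 9010 and 14485 CPM with GK + mL. Untreated hepatocytes held 57.0 ± 16.2 CPM (SD, n = 3 mice), far below both groups. Gckr was lower with GK + mL in 3 of 3 mice, but the groups overlapped and the log2 fold change of -0.33 did not pass the test (SE 0.55, adjusted p = 0.86). Of the Gckr reads, 80.6% to 90.4% with mL and 74.4% to 90.0% with GK + mL were assigned to Gckr-202, the longer coding transcript, and at most 0.0137% to Gckr-201 in any of the 6 libraries. In the authors' TPM, which take length into account, Gckr stood at 13144 ± 1134 with mL and at 10083 ± 2642 with GK + mL (SD, n = 3).

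**Figure D1:**
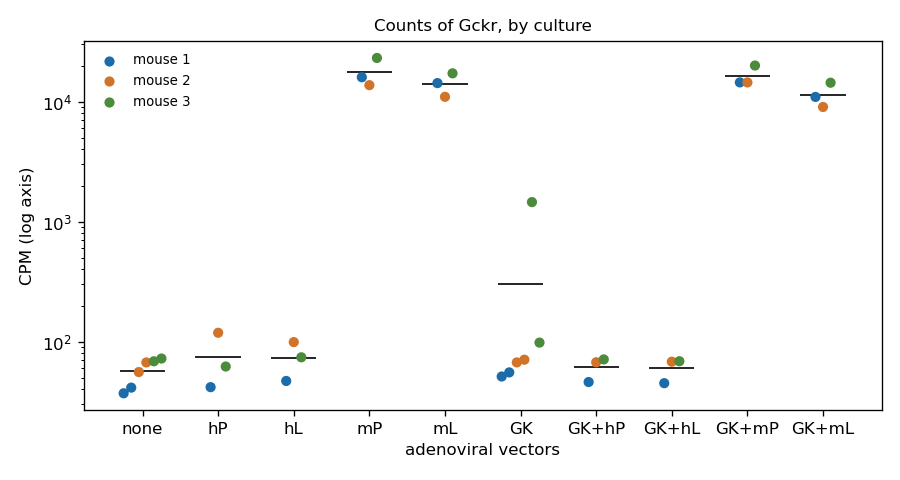
Counts of Gckr in CPM (log axis) for each culture in the 10 conditions, coloured by mouse, with a black line at the mean of the 3 mice. Both mL conditions held at least 9010 CPM of Gckr.

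The 6 libraries were close in depth, at 5222692 to 6679653 reads, and mitochondrial genes took 6.35% to 8.34% of them. Albumin led every one of them (7.15% to 11.0% of the reads). All 10 hepatocyte markers were detected, summing to 78564 to 133977 CPM with mL and 84757 to 126058 CPM with GK + mL. Markers of other liver cells were at far lower levels with ranges that overlapped between the groups: 12 macrophage genes summed to 346 to 540 against 376 to 502 CPM, 9 endothelial genes to 101 to 145 against 110 to 154 CPM, 9 stellate genes to 30.3 to 125 against 35.1 to 149 CPM and 6 cholangiocyte genes to 17.1 to 167 against 15.4 to 155 CPM. Lymphocyte genes summed to at most 2.97 CPM, with Cd3e, Cd3g and Nkg7 at 0. No tested member of these marker lists passed the test. Only 4 of the 9 stellate, 2 of the 6 cholangiocyte and 1 of the 6 lymphocyte genes were expressed enough to be tested. In bulk samples fewer cells of a type and less RNA per cell cannot be told apart.

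GK overexpression in the presence of mL raised a small set of genes, 10 of which are textbook targets of ChREBP, and lowered fewer still. Of 12176 genes tested, 27 were raised (0.222%) and 3 were lowered (0.0246%), at an adjusted p under 0.05 in edgeR's quasi-likelihood test and a fold of at least 1.3 or at most 0.7. Before adjustment 787 genes (6.46%) were higher and 705 (5.79%) were lower at p under 0.05. All 30 called genes had 1 direction in 3 of 3 mice, whereas 16.4% of all genes were higher and 17.8% lower in 3 of 3. In 19 of the 27 raised genes every GK + mL library lay above every mL library, and in the 3 lowered genes every one lay below. Over all tested genes such a separation was seen in 4.61% upwards and 4.94% downwards. The called genes were selected on these same libraries, so their common direction and the separation of the groups are a description and no separate support.

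These counts depended on the model and on the mice. Without the mouse as a term 2 genes were raised and 0 lowered, and DESeq2 with the mouse as a term gave 85 and 22. These DESeq2 calls included log2 fold changes as far out as 30.8 and -28.2, many of them in pseudogenes, and such sizes are not interpretable as fold changes. In edgeR on the 6 libraries alone, with the mouse as a term, 0 genes were called in either direction, with 580 higher and 541 lower of 10969 at an unadjusted p under 0.05. Leaving out mouse 1 gave 95 raised and 15 lowered genes, leaving out mouse 2 gave 1 and 0 (the 1 gene being the pseudogene Krt8-ps), and leaving out mouse 3 gave 5 and 0 (Rgs16, Tkfc, Txnip and Ulk1 among them). The median log2 difference of the 27 raised genes was 0.64 in mouse 1, 0.91 in mouse 2 and 1.20 in mouse 3. With an offset for the effective length of each gene's transcripts 3 genes were raised (Krt8-ps, Tkfc and Txnip) and 0 lowered.

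**Figure D2:**
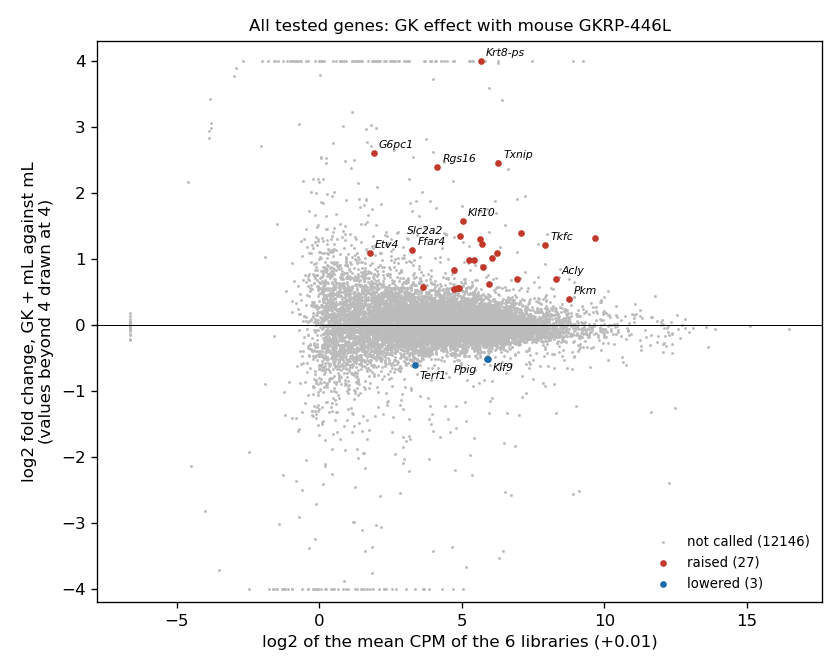
Log2 fold change of GK + mL against mL for the 12176 tested genes, against the log2 of the mean CPM of the 6 libraries, with changes beyond 4 drawn at 4. Red marks the 27 raised and blue the 3 lowered genes, and grey points, some of them far from 0, are genes that did not pass the test.

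The largest increases outside a pseudogene were in regulators and in the enzyme that releases glucose. Txnip (ENSMUSG00000038393; chromosome 3 from 96465267 to 96469201), whose product restrains glucose uptake and binds thioredoxin, was at 12.5, 24.6 and 31.6 CPM with mL and at 53.7, 152 and 192 CPM with GK + mL. Each mouse rose, and mouse 1 had the lowest level in both groups. The log2 fold change was 2.46 (SE 0.30, edgeR adjusted p = 0.00027). Rgs16, a regulator of G protein signalling that is expressed in the fed liver, was at 4.63, 8.76 and 3.58 CPM with mL and at 20.7, 45.1 and 23.2 CPM with GK + mL. Its groups did not overlap, mouse 2 was highest in both, and the log2 fold change was 2.39 (SE 0.39, adjusted p = 0.00677). Klf10, a Krüppel-like transcription factor that responds to glucose, went from 13.5, 14.1 and 21.2 CPM to 33.6, 42.6 and 71.9 CPM, again without overlap (log2 fold change 1.57, SE 0.23, adjusted p = 0.00214).

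The 3 genes of glucose release that passed the test act in sequence at the end of the pathway. Slc37a4 carries glucose 6-phosphate into the endoplasmic reticulum, G6pc1 encodes the catalytic subunit that hydrolyses it, and Slc2a2 encodes GLUT2, the glucose transporter of the hepatocyte surface. G6pc1 (ENSMUSG00000078650; chromosome 11 from 101258369 to 101268729) was at 0.343, 3.05 and 0.311 CPM with mL and at 2.61, 7.70 and 8.45 CPM with GK + mL. At these low counts the groups overlapped, since mouse 2 with mL was above mouse 1 with GK + mL, and the log2 fold change was 2.61 (SE 0.55, adjusted p = 0.0411). Slc2a2 was at 7.54, 35.2 and 15.1 CPM with mL and at 33.8, 60.7 and 33.3 CPM with GK + mL, with mouse 2 highest in both groups and an overlap between them (log2 fold change 1.35, SE 0.28, adjusted p = 0.0352). Slc37a4 rose from 17.7, 51.5 and 21.3 CPM to 45.0, 80.5 and 41.2 CPM, with the same order of mouse 2 above the others (log2 fold change 0.98, SE 0.18, adjusted p = 0.0212). Of the 9 genes of gluconeogenesis and glucose release tested these 3 were called, and the median log2 fold change of the 9 was 0.22, against 0.01 over all genes.

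In glycolysis and fructose metabolism the raised genes included Pklr, Pkm and Tkfc. Pklr (ENSMUSG00000041237; chromosome 3 from 89043449 to 89054619) encodes the liver pyruvate kinase, and its promoter is the one shown above with a match. It was at 59.0, 31.8 and 57.0 CPM with mL and at 99.7, 84.7 and 121 CPM with GK + mL, so the groups were apart although mouse 2 was lowest in both (log2 fold change 1.09, SE 0.15, adjusted p = 0.000846). Pkm, the other pyruvate kinase gene, changed less, with a log2 fold change of 0.39 (SE 0.08, adjusted p = 0.0467) and groups that overlapped. Tkfc, which phosphorylates the glyceraldehyde formed from fructose, went from 178, 134 and 127 CPM to 298, 383 and 339 CPM. Mouse 1 was highest before and lowest after GK, and the log2 fold change was 1.21 (SE 0.14, adjusted p = 0.000218).

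Other members of these pathways did not pass. Of the 18 glycolysis genes tested 3 were called, and the median log2 fold change was 0.23. Gpi1, glucose 6-phosphate isomerase, had an adjusted p of 0.0418 but a log2 fold change of 0.37, just under the fold threshold. Of the 5 tested genes of fructose metabolism 2 were called, Tkfc among them (median 0.53), and Khk, the ketohexokinase that starts the pathway, had 0.53 (SE 0.15, adjusted p = 0.143). The pentose phosphate pathway had 0 of 8 called (median 0.17), with the largest values in Pgls at 0.57 (SE 0.17, adjusted p = 0.173) and Tkt at 0.26. Glycogen metabolism had 0 of 9 called (median 0.06), with Gys2, liver glycogen synthase, at 0.63 (SE 0.23, adjusted p = 0.276) and Ppp1r3b, its phosphatase targeting subunit, at 0.61 (SE 0.25, adjusted p = 0.326).

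**Figure D3:**
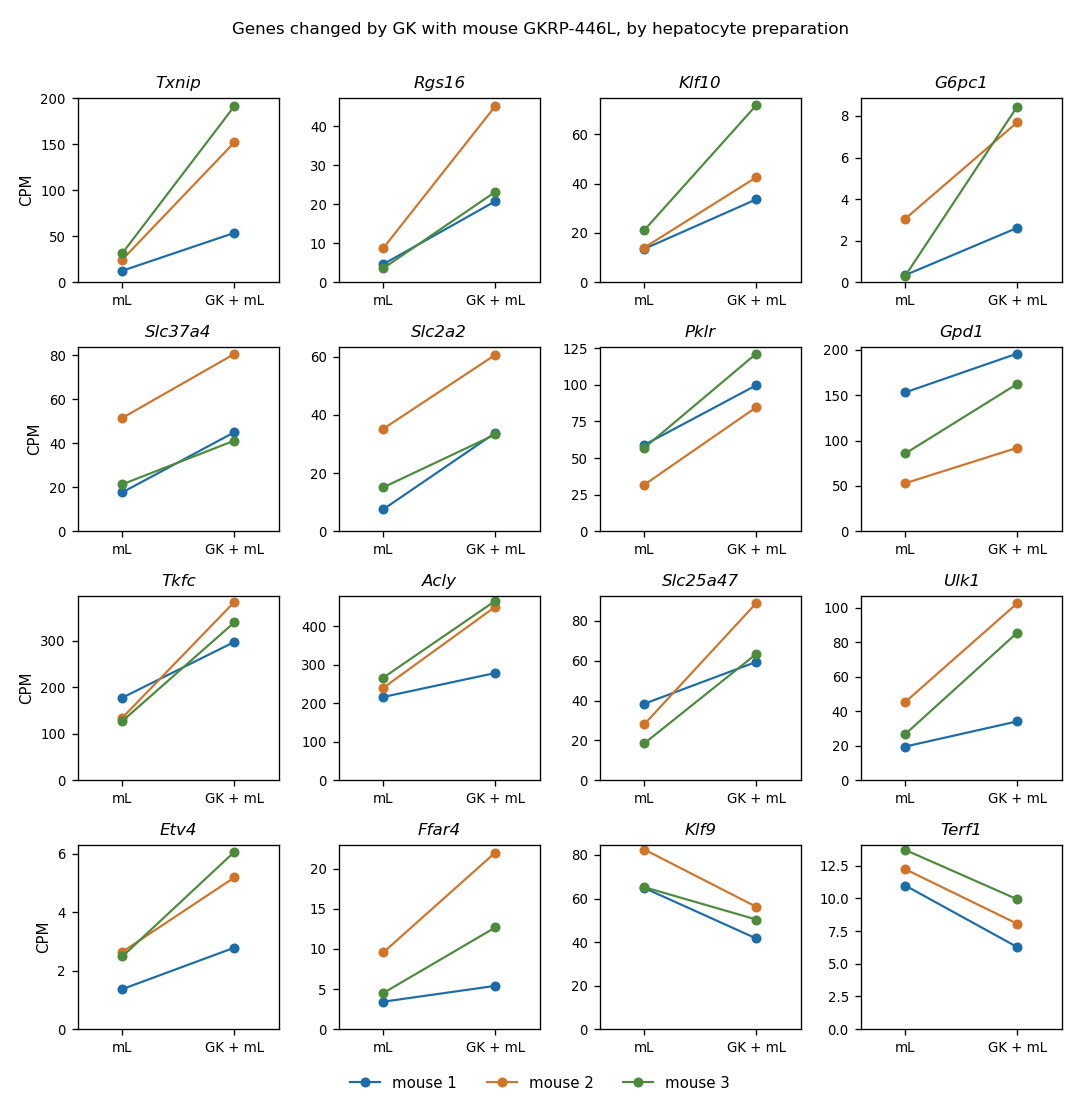
CPM of 14 raised and 2 lowered genes with mL and with GK + mL, with the 2 libraries of each mouse joined by a line and axes from 0. All lines of the 14 raised genes go up and those of Klf9 and Terf1 go down, while the starting levels differ between mice.

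Acly, Aacs, Gpd1 and Ddhd2, enzymes that act on lipids or their precursors, were also raised. Acly, ATP citrate lyase, which makes cytosolic acetyl-CoA, was at 216, 240 and 266 CPM with mL and at 278, 450 and 465 CPM with GK + mL. The smallest step was in mouse 1, the groups were apart, and the log2 fold change was 0.69 (SE 0.15, adjusted p = 0.0467). Aacs, which activates acetoacetate for lipid synthesis, went from 46.0, 44.0 and 41.9 CPM to 63.8, 105 and 101 CPM (log2 fold change 1.02, SE 0.20, adjusted p = 0.0254). With the length offset its log2 fold change was -0.0043. Gpd1, which forms glycerol 3-phosphate, had a log2 fold change of 0.69 (SE 0.14, adjusted p = 0.035), and Ddhd2, a lipase of the endoplasmic reticulum and Golgi region, had 0.57 (SE 0.10, adjusted p = 0.0163).

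Of the 18 tested genes in the list of de novo lipogenesis and triglyceride synthesis, Acly alone was called, 15 were above 0 and the median was 0.20. Fasn, fatty acid synthase, was at 307, 181 and 261 CPM with mL and at 363, 407 and 593 CPM with GK + mL. These groups did not overlap, but the step ranged widely between mice and the log2 fold change of 0.84 did not pass (SE 0.23, adjusted p = 0.122). Acaca, acetyl-CoA carboxylase, had 0.68 (SE 0.19, adjusted p = 0.135) without overlap, whereas Scd1, the stearoyl-CoA desaturase, had 0.12 (SE 0.09, adjusted p = 0.615). Among 10 regulators of VLDL and lipoprotein lipase 0 were called (median 0.16). Angptl8, an inhibitor of lipoprotein lipase induced by feeding, was at 11.1, 4.48 and 7.63 CPM with mL and at 15.5, 26.7 and 37.3 CPM with GK + mL, groups that were apart (log2 fold change 1.77, SE 0.40, adjusted p = 0.056).

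Mitochondrial carriers were represented by Slc25a47, a carrier found mainly in hepatocytes, and Slc25a44, which carries branched-chain amino acids. Slc25a47 was at 38.4, 28.1 and 18.5 CPM with mL and at 59.4, 89.0 and 63.4 CPM with GK + mL. Mouse 1 was highest before and lowest after GK, and the log2 fold change was 1.3 (SE 0.26, adjusted p = 0.0268). Slc25a44 went from 50.2, 54.2 and 43.3 CPM to 66.4, 84.8 and 76.5 CPM (log2 fold change 0.62, SE 0.12, adjusted p = 0.0249). These were 2 of the 17 carriers tested, whose median was 0.16. Slc16a1, the lactate and pyruvate transporter of the cell surface, had 0.18 (SE 0.07, adjusted p = 0.309).

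The remaining raised genes have roles outside these pathways. Ulk1, the kinase that starts autophagy, had the smallest adjusted p of all. It was at 19.5, 45.4 and 26.8 CPM with mL and at 34.2, 103 and 85.6 CPM with GK + mL, so mouse 2 with mL stood above mouse 1 with GK + mL, while each mouse rose (log2 fold change 1.23, SE 0.13, adjusted p = 5.73e-05). Ffar4, a receptor for long-chain fatty acids, went from 3.43, 9.57 and 4.51 CPM to 5.40, 22.0 and 12.7 CPM (log2 fold change 1.14, SE 0.22, adjusted p = 0.0249). Etv4, an ETS-family transcription factor, was low in all libraries, at 1.37, 2.65 and 2.49 CPM with mL and at 2.79, 5.19 and 6.06 CPM with GK + mL (log2 fold change 1.10, SE 0.22, adjusted p = 0.035). The groups of Etv4 were narrowly apart and those of Ffar4 overlapped.

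Called genes outside the rule for naming were Frmd8 (log2 fold change 0.99), Shroom1 (0.87), 2310022B05Rik (0.83), Ddhd2 (0.57), Spring1 (0.57), Pgp (0.56) and Snap47 (0.54), which are named after their values were seen. Their adjusted p-values from edgeR ran from 0.0163 to 0.0467. Spring1 encodes a factor needed for the activation of SREBP transcription factors, and Pgp a phosphatase that clears phosphoglycolate and glycerol 3-phosphate. Krt8-ps, a pseudogene of keratin 8, was at 0.171, 0.407 and 0.156 CPM with mL and at 257, 0.537 and 48.2 CPM with GK + mL. Its increase came from mice 1 and 3, and because it shares sequence with Krt8 and other copies its reads may be assigned to either, so the estimate of 8.37 on the log2 scale (SE 1.45, adjusted p = 0.0135) is uncertain.

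The 3 lowered genes were Terf1, Klf9 and Ppig. Terf1, a protein of telomeric repeats, was at 11.0, 12.2 and 13.7 CPM with mL and at 6.27, 8.05 and 9.92 CPM with GK + mL (log2 fold change -0.61, SE 0.13, adjusted p = 0.0467). Klf9, a Krüppel-like factor induced by glucocorticoids, went from 64.8, 82.5 and 65.2 CPM to 41.7, 56.2 and 50.4 CPM (log2 fold change -0.52, SE 0.11, adjusted p = 0.035). Ppig, a nuclear cyclophilin of the splicing machinery, went from 68.2, 60.9 and 81.5 CPM to 52.5, 46.4 and 47.6 CPM (log2 fold change -0.52, SE 0.10, adjusted p = 0.0298). No GK + mL library reached the lowest mL library in any of them, although the length offset gave Terf1 a log2 fold change of 0.21.

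Another 14 genes were lower at an adjusted p under 0.05 with a smaller change, which makes 17 (0.14%) without a fold threshold. Among them were Chka, choline kinase, at -0.51 (SE 0.08, adjusted p = 0.00615), with a fold of 0.703 that lies just outside the threshold, and Ncl, nucleolin, which went from 1037, 1030 and 1120 CPM to 878, 799 and 787 CPM (log2 fold change -0.38, SE 0.07, adjusted p = 0.0163). The splicing factors Rbm25 (-0.40) and Luc7l3 (-0.44) and the RNA modification genes Mettl6 (-0.43) and Thumpd1 (-0.48) were also in this range.

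Of 24 tested genes listed as textbook ChREBP targets, 24 had a log2 fold change above 0 (51.1% of all genes did), 10 were called and the median was 0.69. Among the 10 were Txnip, Pklr, G6pc1, Klf10, Rgs16, Slc2a2, Tkfc, Gpd1 and Acly. The genes not called included Arrdc4, an arrestin-family relative of Txnip, which was higher in mice 2 and 3 and not in mouse 1 (log2 fold change 1.32, SE 0.34, adjusted p = 0.111), and Me1, malic enzyme, at 0.17. Of 17 genes that the study's text names as induced by GK, 17 were above 0, 9 were called and the median was 1.3. The study chose these genes on the same samples, so they are not independent evidence of direction. Lhx6, a LIM homeobox gene in that list, had a log2 fold change of 0.09 (SE 0.33, adjusted p = 0.959).

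The genes of the ChREBP network itself were not called. Of 8 tested, 4 were above 0 and 4 below, with a median of 0.04. Mlxipl was at 94.0, 49.7 and 54.0 CPM with mL and at 99.0, 79.6 and 86.2 CPM with GK + mL, with groups that overlapped (log2 fold change 0.47, SE 0.16, adjusted p = 0.219). Mxi1, which competes for the same family of partners, had 0.54 (SE 0.14, adjusted p = 0.0958). The length offset moved the median of this list to 0.88 and that of the ChREBP targets to 1.13.

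**Figure D4:**
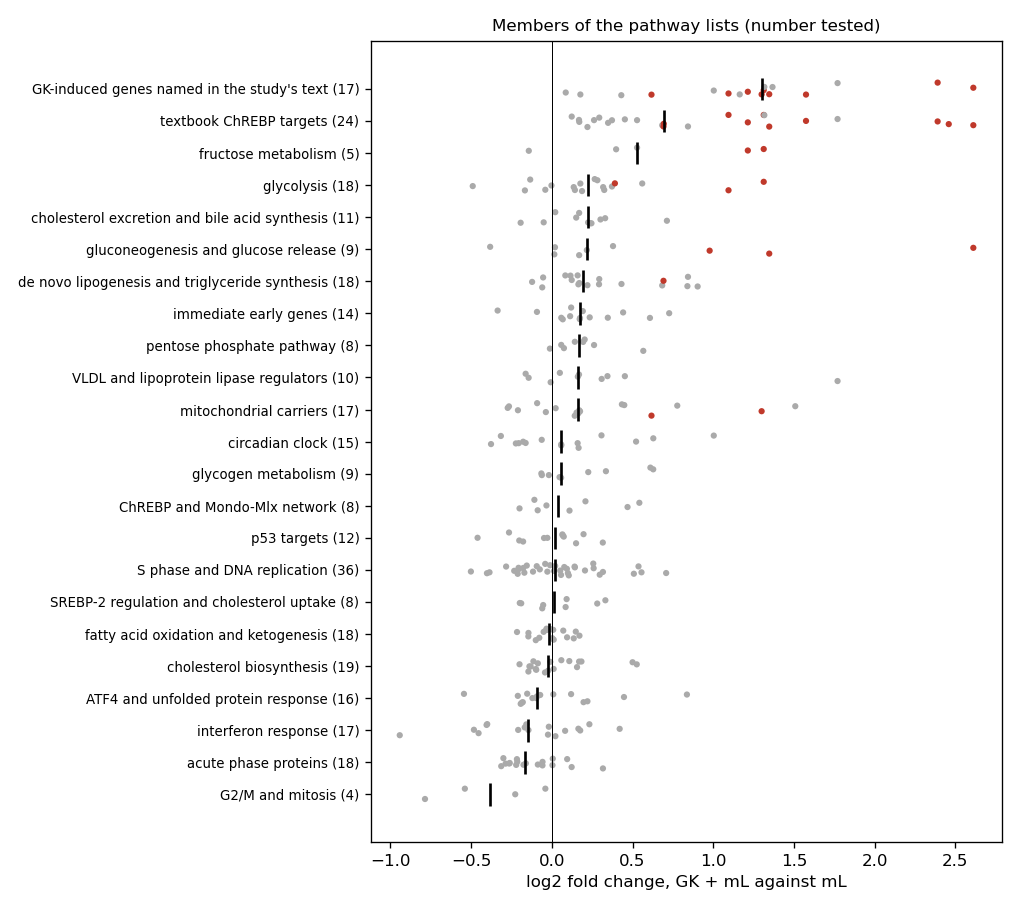
Log2 fold change of GK + mL against mL for the members of 23 pathway lists, with the number tested in brackets, black lines at the medians and red points for raised genes. The medians of the study's list (1.3) and of the textbook ChREBP targets (0.69) stand apart from those of most lists, which lie near 0.

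Lists for the other functions had 0 calls. Cholesterol biosynthesis had a median of -0.02 over 19 genes, with the largest values in Mvd (0.53, SE 0.20, adjusted p = 0.319) and Mvk (0.50, SE 0.21, adjusted p = 0.341), and SREBP-2 regulation and cholesterol uptake had 0.02 over 8 genes. Cholesterol excretion and bile acid synthesis had a median of 0.22 over 11 genes, led by the sterol exporter Abcg1 at 0.71 (SE 0.24, adjusted p = 0.256). Fatty acid oxidation and ketogenesis stood at -0.02 over 18 genes, with Cpt1a, the entry step of the mitochondrial pathway, at -0.22 (SE 0.14, adjusted p = 0.553).

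Genes of the cell cycle, of stress and of the response to virus were likewise not called. S phase and DNA replication had a median of 0.02 over 36 genes and p53 targets 0.02 over 12, while only 4 of the 12 listed genes of mitosis were expressed enough to be tested (median -0.38). The interferon response stood at -0.14 over 17 genes, with Mx2 at -0.94 (SE 0.46, adjusted p = 0.416), and acute phase proteins at -0.17 over 18 genes, with Saa2 at -0.31 (SE 0.13, adjusted p = 0.336). ATF4 targets and the unfolded protein response had -0.09 over 16 genes, immediate early genes 0.17 over 14 and the circadian clock 0.06 over 15.

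The GK effect in the presence of mL was then set beside that without a GKRP vector, with mP and with hL, in the same model. These contrasts share no libraries, but all come from the same 3 mice. The contrast without a GKRP vector sets cells with a virus against untreated cells, whereas the others add a second virus. Its samples are also sums of 2 cultures, and those of the others are single cultures. The numbers of genes called are therefore not on equal terms. Without a GKRP vector GK raised 42 genes (0.345%) and lowered 2 (0.0164%), with 404 (3.32%) higher and 272 (2.23%) lower at an unadjusted p under 0.05, and 18 genes were raised in both, which is 66.7% of the 27 and 42.9% of the 42. With mP and with hL 0 genes were called in either direction by edgeR, although at an unadjusted p under 0.05 mP had 828 genes higher (6.8%) and 843 lower (6.92%) and hL 377 higher (3.1%) and 381 lower (3.13%).

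For the 27 genes raised with mL the median log2 fold change was 1.09 with mL, 0.93 without a GKRP vector, 0.24 with mP and 0.31 with hL. The value with mL was the larger one in 17 of 27 genes against no vector, in 26 against mP and in 27 against hL. Because these genes were selected on the mL contrast, their values there may be raised by the selection, and these counts are a description. Ulk1 had 1.23 with mL, 1.25 without a vector, 0.14 with mP and 0.38 with hL, and Tkfc had 1.21, 1.23, 0.30 and 0.39 in the same order. Pklr had 1.09, 1.00, 0.34 and 0.15. Txnip had 2.46, 2.09, 0.64 and 1.54, so with hL it lay between the others.

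**Figure D5:**
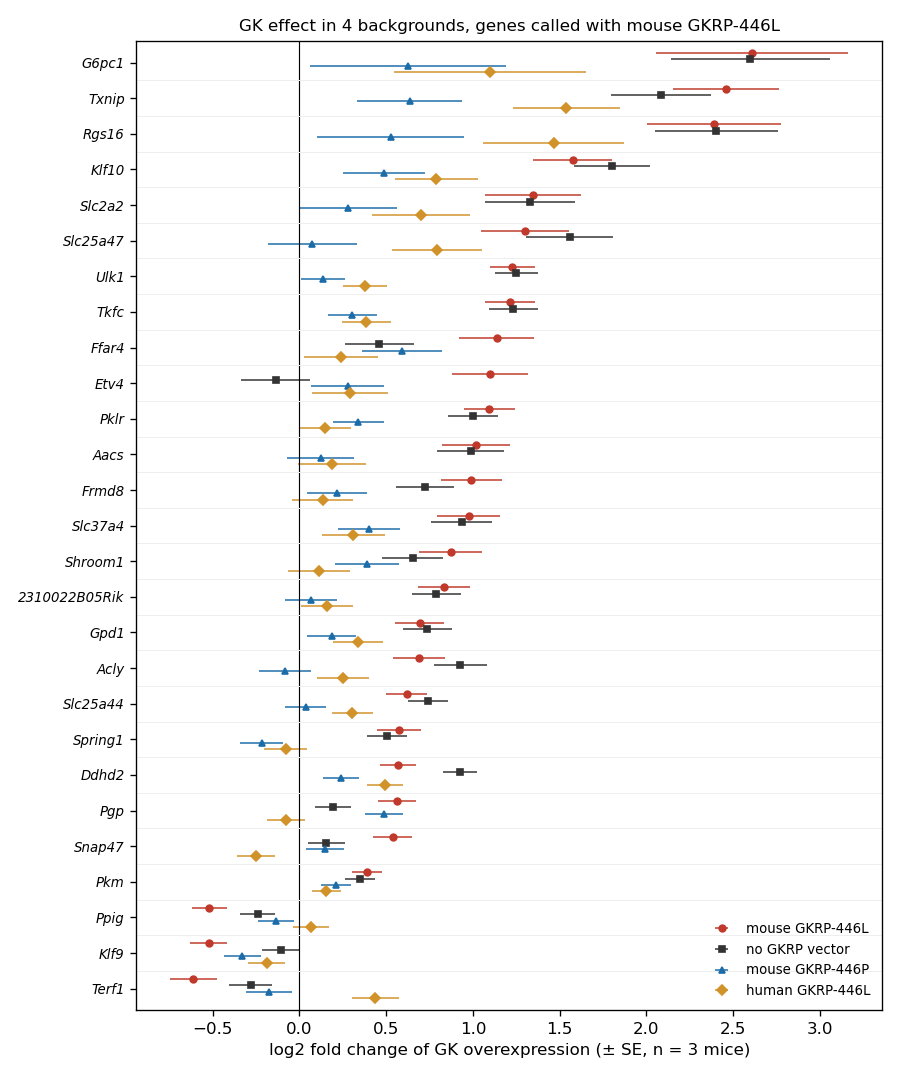
Log2 fold change of GK overexpression with its SE (n = 3 mice) in 4 backgrounds, for called genes other than the pseudogene Krt8-ps. Red circles (mL) and black squares (no GKRP vector) lie close together for most raised genes, and blue triangles (mP) lie to the left of the red circles for every raised gene drawn.

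No gene passed the threshold when the differences themselves were tested in edgeR. Between mL and no vector 215 genes had a larger and 204 a smaller GK effect at an unadjusted p under 0.05 (1.77% and 1.68%), between mL and mP 294 and 399 (2.41% and 3.28%), and between mL and hL 510 and 589 (4.19% and 4.84%). The closest to the threshold against mP was Ulk1, with a difference of 1.09 (SE 0.18, adjusted p = 0.0712). Against hL they included Terf1 at -1.05 (SE 0.19, adjusted p = 0.0571) and Snap47 at 0.79 (SE 0.16, adjusted p = 0.0587). For Tkfc the difference against mP was 0.91 (SE 0.20, adjusted p = 0.393), for Txnip 1.82 (SE 0.42, adjusted p = 0.435) and for Pklr 0.75 (SE 0.21, adjusted p = 0.779). DESeq2 called 13 larger and 9 smaller effects with mL than with mP, 18 and 46 against hL and 25 and 2 against no vector. Most of these DESeq2 calls against mP and no vector were log2 differences beyond 4 in either direction, reaching -56.8 and 60.8, and such sizes are not interpretable as fold changes. They made up 18 of the 22 calls against mP, 25 of the 27 against no vector and 27 of the 64 against hL. The 4 others against mP were Ulk1, Tkfc and Txnip, larger with mL, and Eapp, smaller with mL, and the 2 others against no vector were Rpl38, larger, and Rell1, smaller (Eapp, Rpl38 and Rell1 are named after their values were seen).

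Against no GKRP vector the differences of the shared genes were small beside their errors, with -0.03 (SE 0.18) for Ulk1, -0.02 (SE 0.20) for Tkfc and 0.09 (SE 0.20) for Pklr (adjusted p = 1 for each in edgeR). The 24 genes raised without a vector and not called with mL had a median of 0.44 with mL and 0.74 without a vector, and 23 of them were above 0 with mL. They included Mlxipl (0.47 with mL, 1.12 without a vector) and, named after their values were seen, Glul, glutamine synthetase (0.76 and 1.21), and Mid1ip1, a partner of acetyl-CoA carboxylase (0.90 and 1.22). The 9 genes called with mL alone were Krt8-ps, Etv4, Ffar4, Frmd8, Pgp, Pkm, Shroom1, Snap47 and Spring1. Etv4 had 1.10 with mL and -0.14 without a vector, a difference of 1.24 (SE 0.30) that had an adjusted p of 0.907. A culture of GK overexpression alone from mouse 3 held 1457 CPM of Gckr where the 5 others held 51.3 to 98.3 CPM. Without that culture 25 genes were raised and 2 lowered with mL, and the difference against no vector still gave 0 calls.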

How the data were processed

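RNA from 36 hepatocyte cultures was sequenced by the study. The authors ran Salmon 1.4.0 on untrimmed reads with the Gencode M26 transcripts of mouse (GRCm39). They deposited, for each of 139225 transcripts, expected counts (not normalized), TPM normalized within the library and an effective length. Replicates were not pooled. Here 98.8% of transcripts were matched to genes with Gencode M39, and unmatched ones (0.392% to 0.639% of reads) were left out. These counts were added up over 52230 genes and then rounded. Libraries held 3924674 to 10046158 reads, so a gene at 1 CPM rested on a few reads. Samples were grouped by their labels.

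The 2 cultures of a mouse were summed, giving 30 samples of 10 conditions. In R 4.3.3, edgeR 4.0.16 was used with filterByExpr (12176 genes kept), TMM (factors 0.901 to 1.093) and the quasi-likelihood test with Benjamini-Hochberg adjustment over all genes, with the condition and the mouse as terms (18 residual degrees of freedom). The SE is the log2 fold change divided by the square root of F. The thresholds, an adjusted p of 0.05 and a fold of 1.3 or 0.7, follow the study, which used DESeq2 and names no mouse term. Mouse pairing comes from the labels. Deviations from condition means correlated at 0.223 on average within a mouse (82.2% of 135 pairs over 0.1) and at -0.110 between mice, and at 0.200, 0.141 and 0.122 for the 3 pairs of GK + mL and mL. The biological coefficient of variation was 0.231 with the mouse term and 0.323 without it. Nothing in the labels says that a library is more than 1 culture. The p-values rest on the spread left after the condition and mouse terms, estimated over all 10 conditions, and not on the spread between the 3 mice.

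Genes were named by a rule: the 15 largest calls in each direction, the 10 smallest p-values where fewer than 5 were called, the vector genes, members of the study's list and of the ChREBP targets, called or otherwise the 2 most changed members of the other lists, and the 5 smallest p-values of called differences. Some genes that the rule names are not reported here. The comparison, gene lists and alternatives were chosen with earlier results of these data known. Promoters were the 250 bases before the canonical transcript start in Gencode M39. The test was checked on simulated data. Alternatives were DESeq2 1.42.0, RLE, other filters and folds, no mouse term, other sets of samples, a length offset and each mouse left out. Figures used Python 3.11.15 and matplotlib 3.10.9.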

Additional observations from a re-analysis of the deposited data

Results flagged for a closer look

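Gckr in the cultures with GK overexpression alone had a culture far from the others. Culture 5, from mouse 3, held 1457 CPM, and the next highest of the 6 held 98.3 CPM. Its gap to the nearest culture was 0.967 of the whole range, where the 95% limit for 6 samples is 0.625. Chance alone gives such a flag in about 1 group of 20, and 4 groups were examined. In this culture 87.8% of the Gckr reads were assigned to Gckr-202, against 44.2% to 53.7% in the other 5. The culture is not among the GK + mL and mL libraries. It still entered the filter, the normalization, the mouse term and the estimate of spread, which the 30 samples share.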

How the results depend on the processing

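Of 30 called genes, 29 were called with RLE and 27 with DESeq2, but 2 without the mouse term, 0 of 29 in the 6 libraries alone, 3 with the length offset and 21, 1 and 5 without mouse 1, 2 and 3. The raised and lowered counts (27 and 3) became 85 and 22 with DESeq2, 2 and 0 without the replicate block, 0 and 0 in the 6 libraries, 3 and 0 with the length offset, and 15 and 0 at a fold of 2. The DESeq2 counts include the many log2 fold changes of uninterpretable size described above. Lowered genes numbered 17 without a fold threshold, 0 with a filter of 10 reads and 0 with no filter. With a mouse left out, raised genes ranged from 1 to 95 and lowered genes from 0 to 15. Differences between backgrounds, 0 in edgeR, became 25 larger and 2 smaller against no vector, 13 and 9 against mP and 18 and 46 against hL with DESeq2. Against hL, RLE gave 3 smaller and 36 separate cultures 1 smaller, and leaving out a mouse gave 0 to 1 larger. Against mP leaving out a mouse gave 0 to 1 smaller. The 6 libraries alone give no such differences. The causes were not tested.

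With the length offset the log2 fold change turned for Aacs (-0.0043), Snap47 (-0.038), Terf1 (0.21), Slc16a1 (-0.10), Lhx6 (-0.14), Acacb (-0.20) and Mttp (-0.088), and Lhx6 ranged from -0.21 to 0.28 with a mouse left out. That offset moved list medians to 0.88 (ChREBP network), 1.13 (ChREBP targets), 0.44 (gluconeogenesis), -0.045 (pentose phosphate), 0.52 (lipogenesis), 0.19 (VLDL), 0.50 (carriers), 0.058 (fatty acid oxidation), -0.25 (SREBP-2), 0.029 (cholesterol excretion), -0.025 (interferon), -0.34 (acute phase), -0.18 (ATF4), -0.046 (immediate early genes) and -0.24 (clock). With a mouse or the culture with high Gckr left out, the last chosen after seeing the data, the medians ranged from 0.011 to 0.13 (ChREBP network), 0.18 to 0.31 (glycolysis), 0.16 to 0.36 (gluconeogenesis), 0.16 to 0.29 (lipogenesis), 0.16 to 0.22 (VLDL), -0.15 to -0.099 (interferon) and -0.072 to 0.058 (clock).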
